A study of Zea mays with 192 samples.

Results

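The wound and defence genes described here, with the WRKY factors beside them, are 5 of the 41187 rows of the expression table: wip1 (GRMZM2G156632), pr5 (GRMZM2G402631), chiI (GRMZM2G145461) and WRKY43 (GRMZM2G148087), which are gene models of the maize genome, and GFP_WRKY81, a transfected construct. They were chosen by name, with earlier results of these data known, and all 5 were found. The cells are single protoplasts, that is, cells freed of their wall, from leaves of B73 maize, a wild-type inbred line. The leaves came from more than 10 etiolated seedlings per isolation, grown in constant darkness at 25 °C and collected 10 to 12 days after germination. Pooled pre-meiotic transcription factors had been introduced by transfection into 96 protoplasts (the pre-meiotic pool, written pre-meiotic TF pool in the plots) and pooled basic helix-loop-helix factors into another 96 (the bHLH pool). The series concerns candidate regulators of anther phasiRNAs expressed outside the anther. No untransfected protoplast and no intact leaf were analysed here. The labels do not say how many transfections or libraries a pool's cells came from. Each pool was therefore taken as 1 replicate, differences between pools carry no p-value, and a pool's factors cannot be told apart from other differences in how its cells were prepared. Intervals are 95% intervals and cover counting error only.

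Wounding and microbial attack switch on a set of plant genes whose products act outside or inside the cell against herbivores and microbes. Protease inhibitors such as the product of wip1, a small wound-induced inhibitor of the Bowman-Birk type, block digestive enzymes of insects. Pathogenesis-related proteins include chitinases, which cut the chitin of fungal walls, and thaumatin-like proteins of the PR-5 family, to which pr5 is assigned by name. WRKY proteins are plant transcription factors that bind W-box elements, and many of them act in defence signalling.

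RNA was counted by the CEL-seq2 method, which tags each RNA molecule near its 3′ end with a unique molecular identifier (UMI), so a level is not scaled by gene length. Cells of the pre-meiotic pool had 953 to 88243 UMIs and cells of the bHLH pool 4699 to 148894. Levels are given as TPM, meaning UMIs per 1000000 UMIs of the same cell. Fewer than 2000 genes were detected in 22 cells of the pre-meiotic pool and in 2 of the bHLH pool, and results that rest on them are also given without them. The most abundant row, GRMZM2G028910, made up 30.8% of the UMIs in the median cell of the pre-meiotic pool and 21.7% in that of the bHLH pool. Among leaf markers, the mesophyll gene Ppdk1 was seen in 73 and 70 cells, the mesophyll genes pep1 in 16 and 7 and mdh6 in 11 and 3, and the bundle sheath gene me3 in 24 and 25, in the order pre-meiotic pool and bHLH pool. The small subunit gene ssu1 had 1 UMI in all. The epidermal gene ocl1 was seen in 37 and 53 cells, but the epidermal gene gl1 in 3 and 3. The tapetum genes ms26 and ms8 had no UMI in pre-meiotic cells and a single UMI each in bHLH cells. The part of cell type in the results was not tested.

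All 4 gene models had a lower mean level in the bHLH pool than in the pre-meiotic pool. The gap was widest for chiI and narrowest for WRKY43, whose gap depended on how cells were weighted. The levels are given first gene by gene.

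wip1 was the most abundant of the 4 in both pools. In the pre-meiotic pool its level ran from 0 to 3940 TPM over the 96 cells, with a median of 274 TPM and a mean of 427 ± 537 TPM (SD over cells). The cells of the other pool ran from 0 to 849 TPM, with a median of 82.5 TPM and a mean of 121 ± 146 TPM. The ranges overlapped, but 14 cells of the pre-meiotic pool lay above the highest cell of the bHLH pool, and 6 cells of the bHLH pool lay above the median of the pre-meiotic pool. The sums of 1291 and 372 UMIs made wip1 3.75-fold higher per UMI in the pre-meiotic pool (3.34 to 4.22). Its rank by mean level went from 156th of 31720 rows with a UMI to 503rd of 36048.

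pr5 followed the same order of pools. Its median over pre-meiotic cells was 163 TPM, with a range of 0 to 1348 TPM and a mean of 247 ± 275 TPM. For bHLH cells the median was 41.7 TPM, the range 0 to 531 TPM and the mean 76.1 ± 96.9 TPM. The highest 11 cells of the pre-meiotic pool exceeded every cell of the bHLH pool, while 15 cells of the bHLH pool exceeded the other pool's median. With 731 against 234 UMIs, pr5 was 3.38-fold higher in the pre-meiotic pool (2.91 to 3.93).

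chiI, named for a chitinase, separated the pools most. Among pre-meiotic cells the median was 110.1 TPM, the highest value 689 TPM and the mean was 128 ± 138 TPM. The median bHLH cell had no UMI, the highest had 382 TPM and the mean was 17.4 ± 50.4 TPM. Most cells of the bHLH pool were thus at 0: 24 of 96 had a UMI, 20 of these a single one, against 71 of 96 in the pre-meiotic pool. The 392 and 37 UMIs gave an 11.4-fold higher sum in the pre-meiotic pool (8.16 to 16.5). By mean level chiI ranked 453rd in the pre-meiotic pool and 5299th in the bHLH pool.

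WRKY43 was sparse in both pools. Its median was 23.7 TPM in the pre-meiotic pool, with a highest value of 1049 TPM and a mean of 58.9 ± 137 TPM. For bHLH cells the median was 0, the highest value 149.6 TPM and the mean 22.2 ± 34.8 TPM. The value of 1049 TPM is 1 UMI in the shallowest cell, which held 953 UMIs and 605 genes. No cell of either pool had more than 8 UMIs of WRKY43. In sums, which weight deep cells more, WRKY43 had 118 against 84 UMIs, a 1.52-fold higher level in the pre-meiotic pool (1.14 to 2.03), smaller than the 2.66-fold gap of the means. Without cells of fewer than 2000 genes the means were 37.5 and 22.7 TPM.

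**Figure D1:**
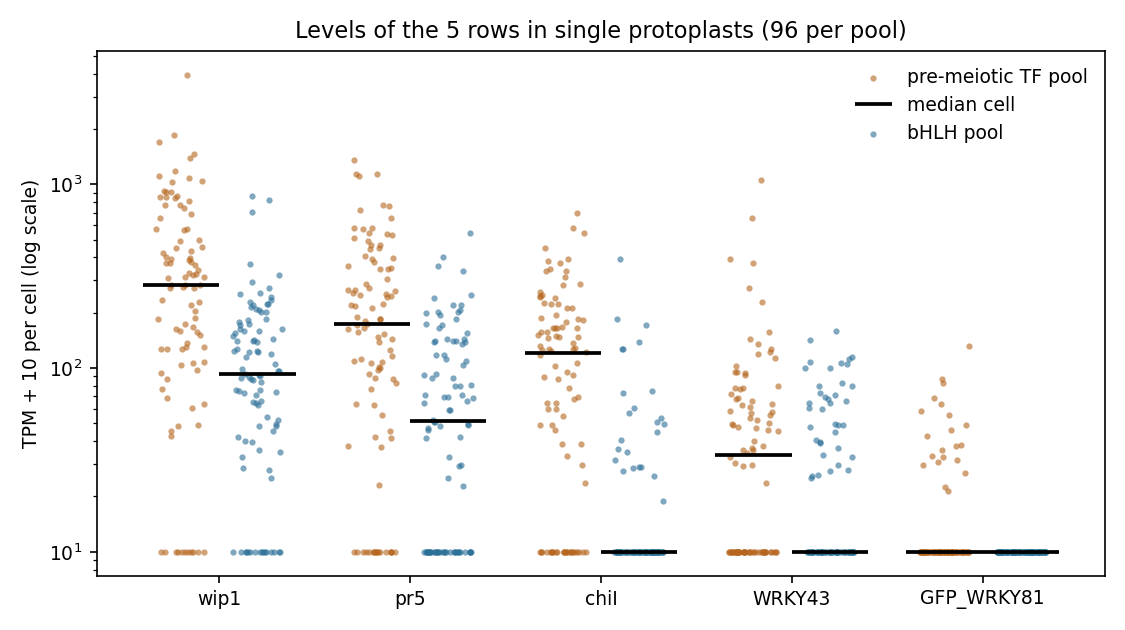
Level of each of the 5 rows in each of the 96 protoplasts per pool, as TPM plus 10 on a log axis, so that cells with no UMI lie at 10; each point is a cell and each bar the median cell. The medians of wip1 are 274 TPM in the pre-meiotic pool and 82.5 TPM in the bHLH pool, and the median of chiI is 0 in the bHLH pool.

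Within a pool, neighbouring genes in the order of levels overlapped widely. The order of means was wip1, pr5, chiI and WRKY43 in the pre-meiotic pool, and wip1, pr5, WRKY43 and chiI in the bHLH pool. In both pools every step of this order was smaller than the SD over cells of the higher gene of the step. WRKY43 and chiI stood in opposite order in the 2 pools, and in the bHLH pool their means were 22.2 and 17.4 TPM.

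These gaps were set against all genes by a log2 ratio of mean TPM plus 10, bHLH pool over pre-meiotic pool, centred on the median of 1775 gene models, namely those with a mean of 50 TPM or more and UMIs in 25% or more of the cells in either pool. That median was 0.26 before centring. The centred log2 ratio was -2.01 for wip1, -1.84 for pr5, -2.60 for chiI and -1.36 for WRKY43. All 4 lay below -1, as did 15.7% of the 1775 genes, and the share above 1 was 6.76%. wip1 and pr5 met the minimum in both pools. chiI and WRKY43 met it through the pre-meiotic pool only, where they were higher, so their count among the genes below -1 is partly set by the minimum. In cells of at least 2000 genes the ratio was -2.13 for wip1, -1.86 for pr5 and -2.58 for chiI. For WRKY43 it was -0.73 in those cells and -0.69 from summed UMIs, both short of -1. With GRMZM2G028910 left out of each cell's total the 4 ratios were -2.01, -1.89, -2.73 and -1.29, in the order wip1, pr5, chiI and WRKY43.

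The share of cells with a UMI showed the gap less clearly for wip1, which most cells of both pools had. wip1 was detected in 88.5% (80.4% to 94.1%) of the pre-meiotic pool's cells and 83.3% (74.4% to 90.2%) of the bHLH pool's. After every cell was thinned to 5000 UMIs, which left 86 and 95 cells, the shares were 72.1% (61.4% to 81.2%) and 34.7% (25.3% to 45.2%). For pr5 the shares were 82.3% and 64.6% before thinning and 59.3% and 31.6% after it. For chiI they were 74.0% and 25.0%, then 44.2% and 10.5%. For WRKY43 they were 55.2% (44.7% to 65.4%) and 39.6% (29.7% to 50.1%), then 19.8% (12.0% to 29.8%) and 8.42% (3.71% to 15.9%). The order of the pools was thus the same at equal depth for each of the 4 genes, and for WRKY43 the intervals overlapped.

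**Figure D2:**
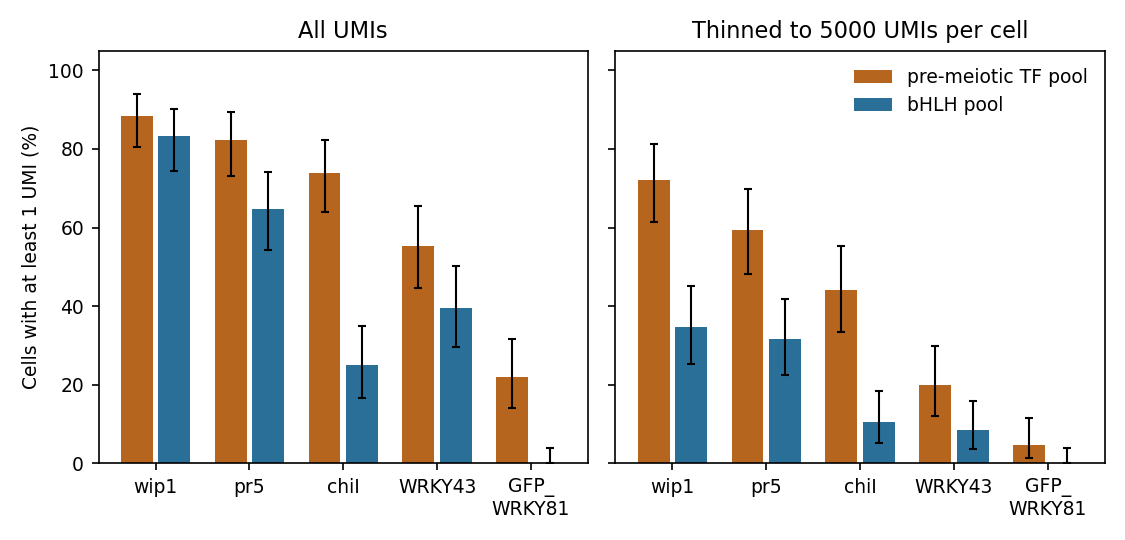
Share of protoplasts with at least 1 UMI of each row, in all UMIs (left, 96 cells per pool) and after thinning each cell to 5000 UMIs (right, 86 and 95 cells); bars start at 0 and error bars are exact 95% binomial intervals, which cover counting error only. For wip1 the gap between the pools is 88.5% against 83.3% on the left and 72.1% against 34.7% on the right.

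The shallow cells were not uniform. Of the 22 cells of the pre-meiotic pool with fewer than 2000 genes, 11 had a UMI of wip1, 12 of pr5, 9 of chiI and 7 of WRKY43. Their mean wip1 level was 202 TPM, against 494 TPM in the other 74 cells, every one of which had a UMI of wip1. For WRKY43 the order was the opposite, at 131 TPM in the 22 cells and 37.5 TPM in the others. A single UMI counts for many TPM in a shallow cell, and the cause of this order was not tested.

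Most cells of the pre-meiotic pool had several of the 4 genes at once. All 4 were detected in 38 of its 96 cells and none in 2. All 4 were detected in 6 of the 96 bHLH cells and none in 6. At 5000 UMIs per cell the counts with all 4 were 8 of 86 and 0 of 95, and the counts with none were 10 of 86 and 37 of 95. Summed over the 4 genes, the median was 620.2 TPM over pre-meiotic cells (quartiles 361 and 1198) and 191 TPM over bHLH cells (quartiles 91.5 and 323).

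Relative to its mean, wip1 spread over cells about equally in both pools, with a coefficient of variation of 1.26 in the pre-meiotic pool and 1.21 in the bHLH pool. That of pr5 was 1.11 and 1.27, that of chiI 1.07 and 2.90 and that of WRKY43 2.33 and 1.57. The variance over the mean, which grows with the mean count, gave another order. In thinned cells the variance of the wip1 count was 4.21 times its mean there and 1.86 times in the bHLH pool, where counting error alone gives 1. For pr5 it was 2.03 and 1.17, for chiI 1.31 and 1.08, and for WRKY43 0.812 and 1.14. With means of 0.198 and 0.0947 UMIs per thinned cell, the values of WRKY43 say nothing about its spread. The highest 5 cells held 20.8% of the wip1 UMIs of the pre-meiotic pool and 27.4% of those of the bHLH pool.

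Single cells show how the genes combined. The protoplast with the highest sum, number 70 of the pre-meiotic pool, had 36 UMIs of wip1 among 9137, or 3940 TPM (2759.5 to 5455), with 10 UMIs of pr5, 3 of chiI and 2 of WRKY43. Protoplast 92 was next, with 34 UMIs of wip1 and 25 of pr5 among 18549. High wip1 did not always come with pr5: protoplast 91 had 26 UMIs of wip1 and 10 of chiI among 18836 but none of pr5, which by a limit of 3 UMIs allows up to 159 TPM. Protoplast 73 showed the reverse balance, with 73 UMIs of pr5 against 23 of wip1 among 65068. The highest bHLH cell, number 16, had 29 UMIs of wip1, 2 of pr5, 6 of chiI and none of WRKY43 among 34154. Among the 10 cells with the highest level of each gene, wip1 and pr5 shared 2 in the pre-meiotic pool and 0 in the bHLH pool. Both were the lowest values of any pair, but tied ones. wip1 and WRKY43 had the same values in both pools, and chiI and WRKY43 also shared 0 in the bHLH pool. The highest were 4 for chiI and WRKY43 in the pre-meiotic pool, and 3 for wip1 and chiI and for pr5 and chiI in the bHLH pool. These overlaps were not tested.

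Coexpression is given as Spearman's rho of TPM over the 96 cells of a pool, which differ in depth, and it carries no p-value. In the pre-meiotic pool wip1 had a rho of 0.37 with pr5, 0.35 with chiI and 0.28 with WRKY43. pr5 had 0.28 with chiI and 0.26 with WRKY43, and chiI had 0.21 with WRKY43. Of the 6 pairs 2, both with wip1, reached 0.3, and the median was 0.28. Values of this size were common: of 1291 genes that met the minimum in this pool, 39.0% reached 0.3 with wip1, 14.9% with pr5, 22.2% with chiI and 8.37% with WRKY43. The rho of wip1 with pr5 lay at the 79.9th percentile of all values with wip1 and at the 94.4th of all values with pr5.

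The number of genes detected in a cell moved with these levels. Its rho in the pre-meiotic pool was 0.50 with wip1, 0.29 with pr5, 0.42 with chiI and 0.30 with WRKY43. With ranks adjusted for it, the 6 pairs ran from 0.10 to 0.27, with a median of 0.17, and no pair reached 0.3. After thinning to 5000 UMIs wip1 had 0.34 with pr5 and 0.28 with WRKY43 but 0.08 with chiI, and pr5 had 0.10 with chiI, so only the pair of wip1 and pr5 reached 0.3. The share of all genes that reached 0.3 after the adjustment or after thinning is not given. These counts of pairs therefore cannot be set against genes at large. In the 74 cells of at least 2000 genes, all 6 pairs reached 0.3, from 0.31 for wip1 and WRKY43 to 0.47 for wip1 and pr5, with a median of 0.38. In those cells 29.0% of the genes reached 0.3 with wip1, 16.0% with pr5, 21.7% with chiI and 16.0% with WRKY43.

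In the bHLH pool the rho of each pair was lower, and so were the values of genes at large. The median rho of all genes with wip1 was 0.02 there, against 0.26 in the pre-meiotic pool. wip1 had a rho of 0.13 with pr5, 0.21 with chiI and -0.11 with WRKY43. pr5 had 0.18 with chiI and 0.17 with WRKY43, and chiI had -0.05 with WRKY43. No pair reached 0.3, and few genes did: 1.04% with wip1, 0.208% with pr5, 1.04% with chiI and 1.11% with WRKY43. The rho of wip1 with pr5 lay at the 81.5th percentile of all values with wip1 and at the 88.4th of all values with pr5. That of wip1 with WRKY43 lay at the 11.8th percentile of all values with WRKY43. chiI was detected in 24 cells of the bHLH pool, and the difference between the pools was not tested.

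**Figure D3:**
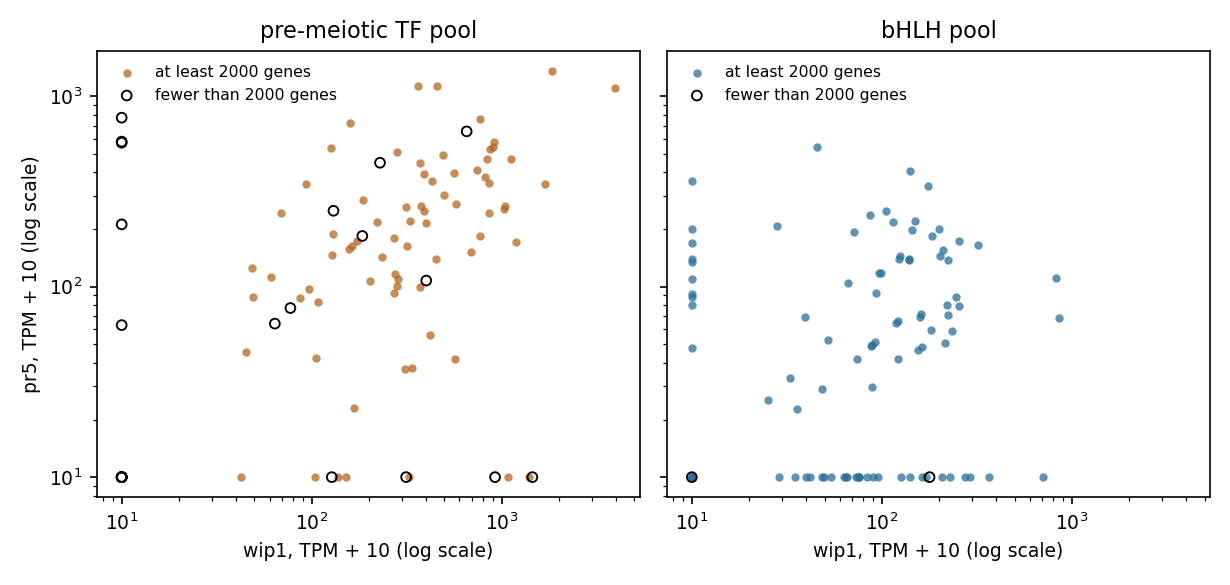
wip1 against pr5 in each protoplast of the pre-meiotic pool (left) and the bHLH pool (right), as TPM plus 10 on log axes; filled points are cells of at least 2000 genes and open circles are cells with fewer, and cells at 10 have no UMI of that gene. Over all 96 cells rho is 0.37 on the left and 0.13 on the right.

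The genes most like each member were taken as the 3 with the highest rho among those that met the minimum in a pool. For wip1 in the pre-meiotic pool these were apx2 (GRMZM2G140667), named for an ascorbate peroxidase, MST1 (GRMZM2G135739), named for a monosaccharide transporter, and the cystatin gene cc6 (GRMZM2G401328), each at 0.60. For pr5 they were PAL1 (GRMZM2G074604), a phenylalanine ammonia-lyase gene at the entry of phenylpropanoid synthesis, at 0.56, the unnamed model GRMZM2G054187 at 0.55 and nam1 (GRMZM2G393433) at 0.52. The mean of nam1 was 1065 TPM in the pre-meiotic pool, and its centred log2 ratio was -7.01. nam1 is also named NAC119, a factor with a construct row of its own, and whether its row counted construct RNA was not tested. The rho of nam1 in the bHLH pool is not given, since it had no UMI there. For chiI the unnamed models GRMZM2G117971, GRMZM2G126572 and GRMZM2G111533 had 0.56, 0.52 and 0.52. For WRKY43 the values were lower, at 0.46 for GRMZM2G123212, 0.44 for GRMZM2G011355 and 0.43 for MSRA4 (GRMZM2G052666), named for a methionine sulfoxide reductase. With ranks adjusted for genes detected, cc6 had 0.44 with wip1, PAL1 0.50 with pr5 and GRMZM2G117971 0.45 with chiI. The values differed in the bHLH pool, where cc6 had a rho of 0.00 with wip1 and PAL1 0.01 with pr5.

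Other genes led in the bHLH pool. wip1 was most like xet1 (GRMZM2G026980), named for a xyloglucan endotransglycosylase that remodels the cell wall, at 0.48, brahma1 (GRMZM2G163849) at 0.45 and GRMZM2G019619 at 0.41. These 3 also had 0.39, 0.35 and 0.43 with wip1 in the pre-meiotic pool. pr5 was most like GRMZM5G878778 (0.40), GRMZM2G054162 (0.38) and GRMZM2G377341 (0.31). chiI was most like AC188003.3_FG011 (0.38), GRMZM2G103617 (0.36) and gpc4 (GRMZM2G176307), a glyceraldehyde-3-phosphate dehydrogenase gene by name (0.36). WRKY43 was most like GRMZM2G337330 (0.40), GRMZM2G423917 (0.36) and GRMZM2G142111 (0.36), all of which also moved with the number of genes detected (0.39, 0.48 and 0.32).

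The GFP_WRKY81 construct row had 29 UMIs, all in the pre-meiotic pool. They lay in 21 of 96 cells (21.9%, 14.1% to 31.5%): 15 cells had 1 UMI, 4 had 2 and 2 had 3. The highest cell had 121 TPM and the mean over the pool was 8.48 ± 20.2 TPM. The bHLH pool had 0 of 96 cells, which by a limit of 3 counts allows a share of cells with a UMI of up to 3.12%. With 3 UMIs set as that pool's floor, the level per UMI was 10.4-fold higher in the pre-meiotic pool. The exact interval, which covers counting error in the 29 UMIs too, has a lower limit of 7.97-fold. By its name the construct is not one of the bHLH factors put into the other pool. Its absence there thus follows from the design and is not a response of the cells. For comparison the GFP_control row had 7 UMIs in the pre-meiotic pool and 5 in the bHLH pool, each in a cell of its own. The reference table pairs no gene model with the name WRKY81, so no native WRKY81 level is given.

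Cells with a GFP_WRKY81 UMI differed from the rest in depth and in other constructs. The 21 cells had a median of 38714 UMIs and 7799 genes, against 22388 UMIs and 3836 genes in the other 75. They had UMIs on a median of 10 other construct rows (range 5 to 24), against 3 (range 0 to 18). wip1 was detected in 21 of these 21 cells and in 64 of the 75, with medians of 487 and 223 TPM. chiI was detected in 21 of 21 and 50 of 75, with medians of 136 and 68.2 TPM. pr5 had medians of 295 and 134 TPM and WRKY43 of 37.4 and 0 TPM. The means of WRKY43 had the opposite order, at 43.2 and 63.3 TPM. In cells of at least 2000 genes the medians were 552 and 274 TPM for wip1 over 19 and 55 cells, 138 and 92.8 TPM for chiI, 337 and 155 TPM for pr5 and 37.4 and 24.4 TPM for WRKY43. The 19 cells were still deeper than the 55, with medians of 42851 against 31261 UMIs and 8500 against 5220 genes. Their median number of other construct rows was 12 against 5. The ranges overlapped for every gene. The cell with the highest wip1 level had no GFP_WRKY81 UMI, which among its 9137 UMIs allows up to 328 TPM by a limit of 3 UMIs.

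Over the 96 cells the rho with GFP_WRKY81 was 0.29 for wip1, 0.25 for chiI, 0.21 for pr5 and 0.11 for WRKY43. Adjusted for genes detected, these were 0.12, 0.11, 0.11 and -0.01. With 29 UMIs of the construct such values are no evidence of a relation.

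The members were then set against the summed TPM of 31 construct rows, all but GFP_control. In the pre-meiotic pool the rho was 0.41 for wip1, 0.40 for chiI, 0.34 for pr5 and 0.20 for WRKY43. The first 3 reached 0.3, as did 16.8% of 1292 genes. In cells of at least 2000 genes the values were 0.47, 0.41, 0.54 and 0.27, against 18.4% of genes reaching 0.3. The summed constructs themselves had a rho of 0.37 with genes detected, and with ranks adjusted for that number the 4 values were 0.28, 0.29, 0.26 and 0.11. After thinning to 5000 UMIs they were 0.42, 0.14, 0.40 and 0.21, so chiI no longer reached 0.3. For the adjusted and the thinned values no share of all genes is given. In the bHLH pool, where the median cell had 1988 TPM of constructs against 277, the rho was -0.15 for wip1, -0.21 for chiI, 0.02 for pr5 and -0.07 for WRKY43, and 5.61% of genes reached 0.3.

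Single constructs were compared next. In the pre-meiotic pool 16 construct rows had a UMI in at least 20 cells, and each had a rho above 0 with each of the 4 genes. The highest were GFP_bHLH97 with wip1 (0.43) and with chiI (0.42), GFP_TCP23 with pr5 (0.39) and GFP_DOF25 with WRKY43 (0.29). Adjusted for genes detected, the highest were 0.32, for GFP_TCP23 with pr5, and 0.30, for GFP_bHLH97 with chiI. After that adjustment 16 of the 16 rows stayed above 0 with wip1, 14 with pr5, 14 with chiI and 12 with WRKY43. Some of these values were close to 0, such as 0.01 for GFP_NAC29 and 0.02 for GFP_OCL4 with wip1. No such count is given for other genes, so these counts are no result about the 4 genes. Unadjusted values above 0 were common in this pool: with the summed constructs the lower quartile of 1292 genes was 0.08. For the bHLH pool 8 rows had a UMI in at least 20 cells, and the values lay between -0.29, for bHLH122_GFP with chiI, and 0.14, for GFP_Ms32 with WRKY43.

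**Figure D4:**
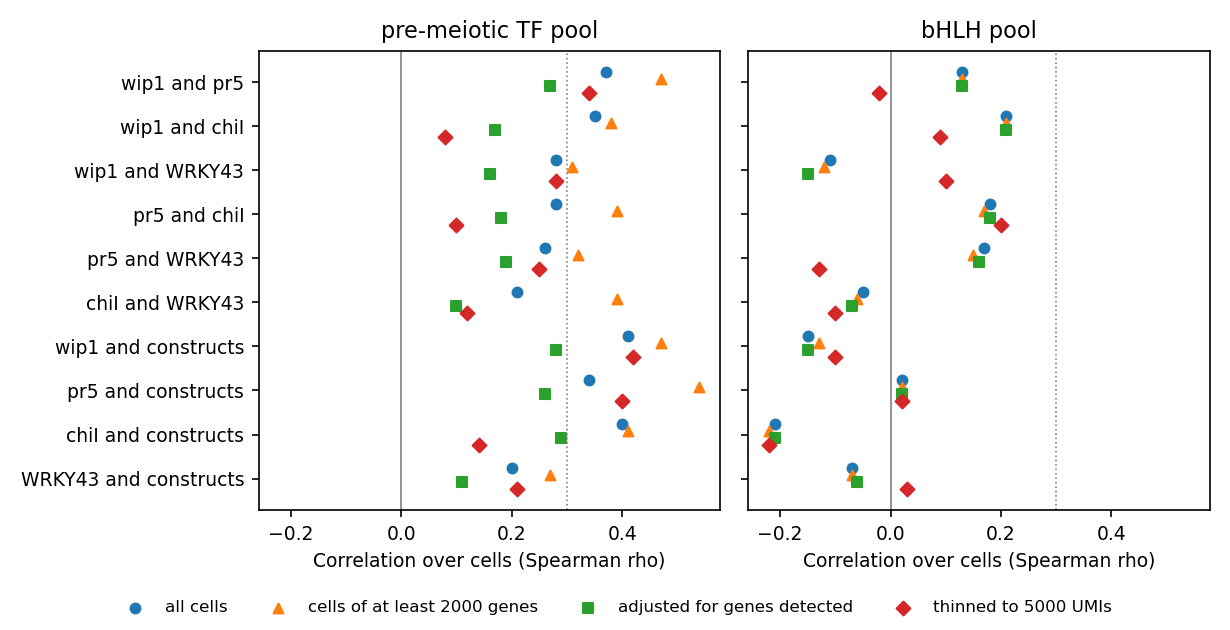
Spearman's rho over cells for the 6 pairs of gene models and for each gene model with the summed constructs, in the pre-meiotic pool (left) and the bHLH pool (right); symbols are 4 ways of computing it and the dotted line is 0.3. All 6 pairs lie above 0.3 in cells of at least 2000 genes of the pre-meiotic pool, none does after adjustment for genes detected, and none does in the bHLH pool.

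Related genes were matched by name to the lists of defence genes and of WRKY factors. The lists of WRKY, pathogenesis-related, chitinase, protease inhibitor, benzoxazinoid, phenylpropanoid and wound volatile genes matched 41 rows, 37 of them other than the members. Of these 37, 7 met the minimum: 4 had a centred log2 ratio below -1 and 1 above 1, against 15.7% and 6.76% of all genes, and their median was -1.28. The 4 below -1 met the minimum through the pre-meiotic pool only and the 1 above 1 through the bHLH pool only, so the minimum partly set these counts. In cells of at least 2000 genes 3 of the 7 were below -1, against 14.0% of genes. A second rule was chosen with the values in view. By it, 24 of the 37 had at least 20 UMIs over both pools. Of these, 11 had a ratio of summed UMIs of at most 0.5, bHLH pool over pre-meiotic pool, and 1 had at least 2. Over 15062 genes of at least 20 UMIs these shares were 13.0% and 13.9%, and the median ratio was 1.11. In cells of at least 2000 genes the count was also 11, against 13.7% of genes.

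Protease inhibitors went both ways. cc6, a cystatin gene, whose product inhibits cysteine proteases, had 144 TPM in the pre-meiotic pool and 47.2 TPM in the bHLH pool (centred log2 ratio -1.69), close to the -2.01 of wip1. The cystatin genes cc7 (GRMZM2G148925) and cc4 (GRMZM2G013461) were higher in the bHLH pool. cc7 had 92.4 against 18.0 TPM, a 3.92-fold higher sum of UMIs (3.00 to 5.18) and detection in 85.4% against 34.4% of cells. cc4 had 59.7 against 31.8 TPM, a ratio of 1.75 (1.37 to 2.23). Of the 5 inhibitor genes with at least 20 UMIs, wip1 included, 2 were at or below 0.5 and 1 at or above 2.

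Pathogenesis-related genes and chitinases were mostly lower in the bHLH pool. The 3 matched pathogenesis-related rows all had a ratio of at most 0.5: pr5 with 0.296, PR10 (GRMZM2G112524) with 0.366 (0.248 to 0.533) and pr6 (GRMZM2G065585), also named geb1, with 0.397 (0.215 to 0.704). PR10 and pr6 fell outside the rule for named genes, as do chn1, chiB, BX3, BX4, BX5, bx6, BX14, igl1 and the WRKY genes other than WRKY43, all chosen after their values were seen. The chitinase gene chiA (GRMZM2G051943) differed far less than chiI. It had 129 and 82.4 TPM, a ratio of 0.631 (0.536 to 0.742) against 0.0873 (0.0606 to 0.123) for chiI, although both had almost the same level in the pre-meiotic pool. It was detected in 77.1% and 80.2% of cells. chn1 (GRMZM2G453805) had 0.322 (0.170 to 0.579) on 46 and 16 UMIs, and chiB had 2 and 3 UMIs.

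Small-molecule defence was represented by benzoxazinoid genes, whose products make grass toxins, and by PAL1. The glucosyltransferase genes bx8 (GRMZM2G085054) and bx9 (GRMZM2G161335), which attach the sugar that stores the toxins in inactive form, had 51.8 against 19.1 TPM and 57.4 against 23.2 TPM. Their centred log2 ratios were -1.35 and -1.28. BX14 (GRMZM2G127418), which adds a methyl group in the same pathway, had a ratio of summed UMIs of 0.456 (0.337 to 0.613). Of the other matched genes of the pathway, BX3 had 3 and 1 UMIs, BX4 had 1 and 3, BX5 had 0 and 6, and bx6 had 9 and 11. PAL1 had 144 against 39.9 TPM, a centred log2 ratio of -1.89. The wound volatile gene igl1, for the enzyme that releases free indole, had 9 and 14 UMIs.

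WRKY43 was the only 1 of 18 matched WRKY rows to meet the minimum. With 20 UMIs or more there were 11 rows, of which 3 had a ratio of at most 0.5 and none of at least 2. These 3 were WRKY29 (GRMZM2G040298), with 34 against 2 UMIs and a ratio of 0.0544 (0.00634 to 0.212), WRKY95 (GRMZM2G151763), with 39 against 7 UMIs and 0.166 (0.0627 to 0.376), and WRKY42 (GRMZM5G812272), with 36 against 7 UMIs and 0.180 (0.0676 to 0.410). The second most abundant WRKY gene by UMIs, WRKY62 (GRMZM2G143765), did not differ beyond counting error, at 56 and 62 UMIs and a ratio of 1.02 with an interval from 0.702 that spanned 1. WRKY116 (GRMZM2G130854) had 27 and 38 UMIs and a ratio of 1.30 (0.775 to 2.22). Both rows that the reference gives the name WRKY109 spanned 1, at 0.787 (0.387 to 1.58) and 1.85 (0.860 to 4.23). The other rows of 20 UMIs or more, WRKY43 apart, had intervals that spanned 1. Summed over the 18 rows the mean level was 179.6 TPM in the pre-meiotic pool and 93.5 TPM in the bHLH pool, of which WRKY43 made up 58.9 and 22.2 TPM.

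**Figure D5:**
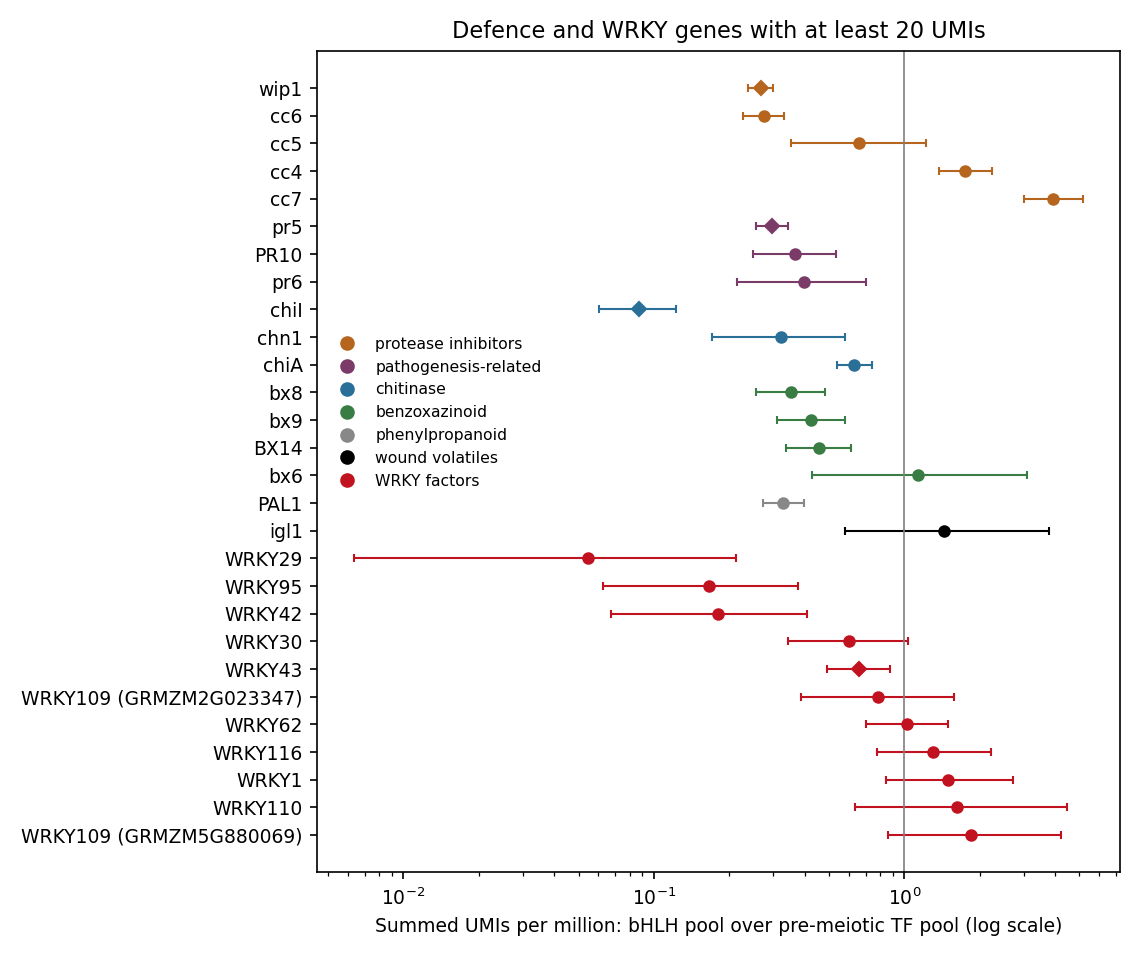
Ratio of summed UMIs per 1000000, bHLH pool over pre-meiotic pool, on a log axis for the 28 defence and WRKY genes with at least 20 UMIs; diamonds are the 4 gene models described first, circles the other 24, and bars are 95% intervals for counting error. Most defence genes lie left of 1, with cc4, cc7, bx6 and igl1 to its right, and the WRKY genes run from 0.0544 for WRKY29 to 1.85 for a WRKY109 row.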

How the data were processed

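Per the submitters' processing notes, HISAT2, SAMtools and UMI-tools were used with the maize build B73 RefGen v3. The sources used here give no tool versions, gene annotation, strand handling or cell filters. The deposited signal is named TPM by the authors, but its sums per cell run from 65502 to 10967874. Each was a number of UMIs scaled to 1000000 by the total of some cell, with the totals recycled down the rows. Undoing this gave whole UMIs for 1001042 of 1001042 nonzero values (100%, tolerance 0.001 UMI), and TPM was recomputed within each cell. The planned analysis took the deposited TPM as given. The rule on genes of at least 20 UMIs and the alternatives named in the closing section as added were not planned.

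The pool named in a cell's title gave its group. All 192 had at least 500 genes and were kept. Doublets were not called, as by its label every sample holds 1 protoplast. The members, gene lists and alternatives were chosen with earlier results of these data known. Python 3.11.15, numpy 2.4.6, pandas 2.3.3 and scipy 1.17.1 were used. Shares above 0 have exact Clopper-Pearson intervals, counts of 0 a limit of 3 counts, sums of UMIs in a cell exact Poisson intervals, and ratios of summed UMIs the interval from the exact binomial one, all at 95%. Thinning to 5000 UMIs per cell was drawn once and left out 10 and 1 shallower cells. The ratio and correlation scripts were tested on simulated data.

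Genes named are the 5 members, up to 4 genes per list with the highest mean among those that met the minimum, and the 3 genes most like each member in each pool. Names come from a RefSeq table (assembly Zm-B73-REFERENCE-NAM-5.0). It is not the build of the data, so no coordinates are given.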

Additional observations from a re-analysis of the deposited data

How the results depend on the processing

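With a pseudocount of 100 TPM the centred log2 ratios were -1.38 for wip1, -1.10 for pr5, -1.08 for chiI and -0.50 for WRKY43. At that pseudocount 3 instead of 8 of the 11 defence and WRKY genes that met the minimum, members included, were below -1. These 3 were wip1, pr5 and chiI, so no list gene other than the members stayed below -1. The share of all genes below -1 at that pseudocount is not given. Centred on all gene models with a UMI, the ratio was -1.77 for wip1 and -1.61 for pr5. For WRKY43 it was -0.69 from summed UMIs and -0.73 in cells of at least 2000 genes. With the deposited values as they stand it was -3.18 for wip1, -2.11 for pr5 and 0.59 for WRKY43, where the direction turned, since those values were divided by the totals of other cells. The median rho of the 6 pairs in the pre-meiotic pool was 0.28, but 0.38 in cells of at least 2000 genes and 0.17 adjusted for genes detected. In the bHLH pool it was 0.15, but 0.04 after thinning. The median rho with summed constructs in the pre-meiotic pool was 0.37, but 0.27 adjusted for genes detected. Among single values in the pre-meiotic pool, thinning took wip1 and chiI from 0.35 to 0.08, pr5 and chiI from 0.28 to 0.10, and chiI and constructs from 0.40 to 0.14, and a Pearson correlation of log2 values took WRKY43 and constructs from 0.20 to 0.07. In the bHLH pool thinning moved 4 pairs, among them wip1 and pr5 from 0.13 to -0.02 and pr5 and WRKY43 from 0.17 to -0.13. The cause of these shifts in rho was not tested. Of 36 ratios under alternatives 25 moved by less than counting error, and of 140 single correlations 123 moved by less than 0.1. The alternatives that used the deposited values, left out GRMZM2G028910, counted genes of at least 20 UMIs, adjusted for genes detected or left out the highest wip1 or construct cell were chosen after seeing the data. Depth limits chiI in the bHLH pool, WRKY43 and GFP_WRKY81 most. No paired analysis was possible because protoplast numbers only count cells and no test was made.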

Other observations

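Genes of jasmonate, the hormone that carries wound signals in plants, did not share 1 direction. The list matched 30 rows by name, of which 22 had at least 20 UMIs. Of these, 5 had a ratio of summed UMIs, bHLH pool over pre-meiotic pool, of at most 0.5 and 2 of at least 2, against 13.0% and 13.9% of all genes of that depth. The lipoxygenase genes lox4 (GRMZM2G109056) and lox5 (GRMZM2G102760), named for enzymes that oxygenate fatty acids, had 0.238 (0.159 to 0.347) and 0.260 (0.109 to 0.558), while lox10 (GRMZM2G015419) had 1.34 (0.705 to 2.59). Genes named for repressors of jasmonate signalling stood on both sides. JAZ9 (GRMZM2G145407) had 0.201 (0.0597 to 0.541) on 23 and 5 UMIs, and ZIM18 (GRMZM2G145412) had 6.84 (4.16 to 11.9) on 18 and 133 UMIs. These 5 genes were chosen after their values were seen. The most abundant of the list were the oxophytodienoate reductase genes by name opr2 (GRMZM2G000236), with 2.44 (2.37 to 2.51), and opr1 (GRMZM2G106303), with 0.858 (0.834 to 0.883). Next by mean level came aos1 (GRMZM2G067225), with 0.795 (0.665 to 0.949), and opr5 (GRMZM2G087192), with 0.449 (0.347 to 0.576). opr3 (GRMZM2G156712), also chosen after its values were seen, had 0.105 (0.0618 to 0.170) on 167 and 19 UMIs.

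GRMZM2G028910, the most abundant row, had a rho in the pre-meiotic pool of -0.47 with wip1, -0.38 with pr5, -0.36 with chiI and -0.37 with WRKY43. In the bHLH pool the values were -0.10, -0.03, -0.07 and 0.20. Both levels are shares of the same cell's total, which can lower a rho by itself. Its part in these values was not tested.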
